A study of Mus musculus with 6 samples.

Results

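Chromatin-bound RNA of MEL cells was examined before any capture, in the 2 input libraries of a set of 6. They were chosen by their titles alone and are called input 1 (no number in the title) and input 2 (labelled as the second replicate). MEL is a mouse erythroleukemia line, a leukemia of red cell precursors, and its cells are labelled C57BL/6. They were grown in a roller bottle and crosslinked with formaldehyde for 30 min, and the chromatin was prepared, de-crosslinked and sequenced with a stranded total RNA kit. All 6 libraries share these steps. The other 4 libraries, 2 of chromatin captured with TH59-DB and 2 with its masked form, were used only to describe how the transcript models were chosen. Nothing in the labels says whether the 2 input libraries came from separate cultures, so their spread may be technical.

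RNA stays with chromatin for several reasons. Transcripts being made are tethered to it by RNA polymerase, some finished RNAs such as Malat1 and 7SK remain in the nucleus, and crosslinking also holds RNA of nucleoli and of any cytoplasm carried along. A library made from total RNA without selection of poly(A) tails can hold all of these, together with ribosomal, mitochondrial and short polymerase III transcripts.

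Each deposited file lists reads for 7959 assembled transcript models on the mouse build mm10. Input 1 had a library total of 2985229 reads and input 2 of 2854992, recovered from the deposited FPKM values. Levels are given as CPM, reads per 1000000 of that total, so 1 read was 0.335 CPM in input 1 and slightly more in input 2. The models held 51.8% of input 1 and 45.4% of input 2, or 47.6% and 42.1% when overlapping models were counted once. Of the models, 5674 (71.3%) had reads in both libraries, 1359 (17.1%) in neither, 525 in input 1 alone and 401 in input 2 alone. In the first TH59-DB library no model had fewer than 5 reads, unlike in the other 5, so the models may have been chosen from it and a gene without a model is not shown to be absent from the input. Gene names come from RefSeq spans: a model that lies in a span may stem from another RNA.

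Erythroid genes were found at low to moderate levels. Of the 23 erythroid markers 13 had a model, and all 13 had reads. Gata1, the master transcription factor of red cell precursors, had 24 reads in input 1 and 31 in input 2, and its cofactor Zfpm1 (FOG1) had 540 and 676. Car2, a carbonic anhydrase of red cells, had 20 and 41 reads, and Car1, its relative, had 608 and 751. None of the 8 globin gene names listed, Hba-a1 and Hbb-bs among them, had a model. Among markers of other cells, Laptm5 had 32 and 74 reads and Itga2b, of megakaryocytes, 9 and 16. No model fell in the genes listed for B and T cells (9 genes) or for fibroblasts and endothelium (7 genes).

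Reads were concentrated in a few models. The 10 models with the most reads took 37.5% of input 1 and 28.4% of input 2 (33.0% ± 6.42, SD, n = 2), and the 100 with the most took 44.3% and 34.3%. Only 3 models made up 50% of the reads in models in either library, whereas 90% needed 312 models in input 1 and 876 in input 2. Those 3 models held 30.5% of input 1 and 24.1% of input 2. All 7956 others together held 21.3% of each library, or 17.1% of input 1 and 18.0% of input 2 when overlapping models were counted once.

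The largest of the 3 is a 414-base single-exon model in the span of Zc3h7a, a zinc finger protein gene (chr16:11143911-11144324). It had 419444 reads in input 1 and 409386 in input 2, or 14.1% and 14.3% of the libraries (14.2% ± 0.204, SD, n = 2). The model covers 1.04% of the 39800-base gene. The next is a 6105-base model on chromosome 17 (chr17:39842884-39848988), which contains the whole of Rn18s-rs5, annotated as an 18S ribosomal RNA pseudogene of 1849 bases, and 877 bases of the lncRNA gene AY036118. It had 262791 and 221192 reads, 8.80% and 7.75%. The third, a 188-base model in no gene span (chr6:49236453-49236640), had 228457 reads in input 1 and 56147 in input 2, a ratio of 3.89 between the libraries. Thus the first 2 took like shares of both libraries and the third did not.

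By class, models in spans of protein-coding genes held 28.2% of input 1 (95% exact interval 28.1% to 28.2%) and 29.2% of input 2 (29.2% to 29.3%). Without the Zc3h7a model they held 14.1% and 14.9%. Models in no gene span held 19.5% and 11.3% (15.4% ± 5.85, SD, n = 2), or 3.08% and 1.54% without the models on chromosomes 17 and 6. The chromosome 17 model is counted in this class although it contains the whole of Rn18s-rs5. Rn18s-rs5 makes up 30.3% of that model and AY036118 14.4%, too little for it to take either name. The share of this class is therefore not all RNA from outside annotated genes. Mitochondrial models held 2.26% and 3.04%. Small noncoding RNA genes held 1.10% and 1.05%, lncRNA spans 0.469% and 0.461%, and pseudogenes and other genes 0.288% and 0.354%. With overlapping models counted once, small noncoding RNA genes held 0.868% and 0.698% and lncRNA spans 0.389% and 0.323%. Protein-coding spans then held 25.4% and 28.0%. Intervals here describe the error of counting alone, since reads were not tagged as molecules. The bars of reads by category show the 3 large models beside these classes.

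**Figure D1:**
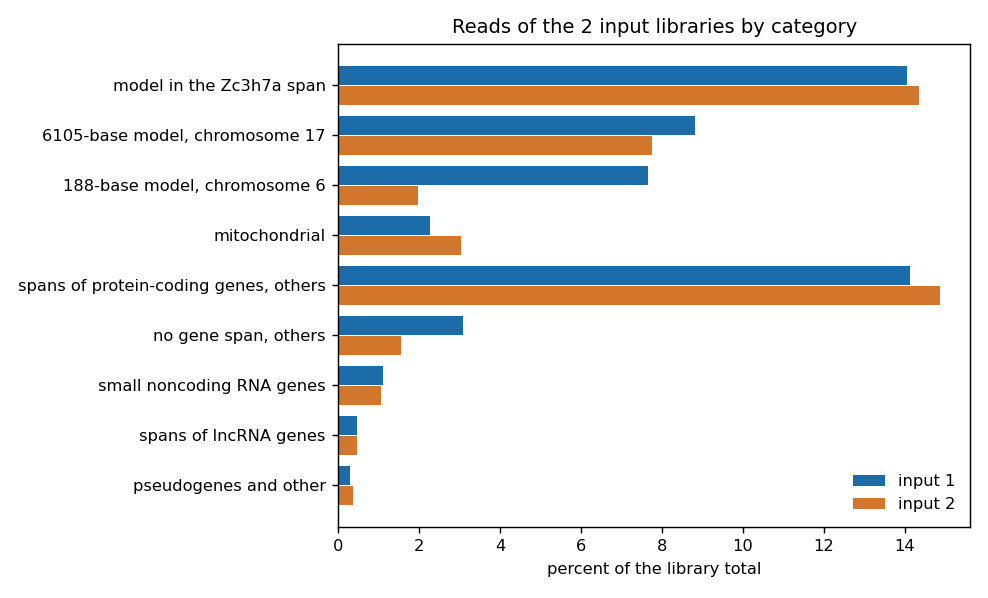
Share of the library total (percent, horizontal axis, from 0) for the 3 models with the most reads and for each class of the other models; blue bars are input 1 and orange bars input 2. The Zc3h7a model takes 14.1% and 14.3%, while the 188-base model takes 7.65% of input 1 and 1.97% of input 2.

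After the 3, the model with the highest mean level lay at the start of the mitochondrial genome. A single-exon model over bases 7 to 4416 had 32670 and 42104 reads. It covers both mitochondrial ribosomal RNAs, mt-Rnr1 and mt-Rnr2, and the gene of the complex I subunit ND1 in full, and 48.5% of ND2. A second, 2-exon model with the same ends had 32038 and 41674 of largely the same reads, so the mitochondrial share counted once per locus was 1.18% and 1.58%. The mRNA part was far lower per length. The model that covers COX1, COX2, ATP8 and ATP6 in full had 1032 and 839 reads, which is 74.8 and 63.6 CPM per kilobase, against 2482 and 3344 CPM per kilobase for the model of the ribosomal RNAs.

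Further large models lay in gene spans or outside them and were lower in input 2. A 183-base model in the span of Il31ra, a cytokine receptor subunit, had 30114 reads in input 1 and 3038 in input 2 (9.48-fold lower in input 2). A 280-base model in Gphn, which encodes the synaptic scaffold gephyrin, had 25762 and 6258 reads, and a 472-base model in Jarid2, a cofactor of the repressive PRC2 complex, had 8057 and 956. In no gene span, a 469-base model on chromosome 3 had 37242 and 21532 reads and a 106-base model on chromosome 4 had 25595 and 3868. All 5 models were higher in input 1, by 1.65-fold to 9.48-fold. Filip1l had 3 overlapping models that shared nearly all of their reads, the largest with 20426 and 8723.

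Named cytoplasmic and nuclear mRNAs formed the next tier, and these were higher in input 2. Hsp90ab1, a cytosolic chaperone, had a 10-exon model of 2320 bases with 4874 reads in input 1 and 6847 in input 2. Eef1a1, the translation elongation factor, had 3396 and 5104 reads over 7 exons. Mki67, a coat protein of mitotic chromosomes, had 3280 and 4996 reads over the longest of all the models, 7543 bases in 3 exons. Per length, Hsp90ab1 reached 704 and 1034 CPM per kilobase and Eef1a1 753 and 1183. Over all models the median level was 11.9 CPM per kilobase.

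Models with several exons were 1962 of the 7959 and held 10.1% of input 1 and 12.8% of input 2 (11.5% ± 1.89, SD, n = 2). Part of these reads is shared with overlapping single-exon models: the 1864 multi-exon models that overlap no single-exon model held 6.15% and 9.71%. Single-exon models held 41.7% and 32.6%, or 11.2% and 8.50% without the 3 large ones. The median level of a single-exon model was 1.70 CPM, 6.42 CPM per kilobase. Models of 2, 3, 4 and 5 exons had median levels per length of 37.0, 49.2, 67.8 and 105 CPM per kilobase, and the 76 models of 6 or more exons had 97.1.

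Many genes were covered by several separate models. Of 4152 genes with a model, 2754 (66.3%) had 1, and 160 had 5 or more. The median span was 74.4 kb for the latter and 22.8 kb for genes with 1 model. Lrmda, a long gene of 1037 kb, had 27 models, all of 1 exon, which covered 0.692% of the span and had 193 reads in input 1 and 274 in input 2. Runx1, a transcription factor of blood stem cells, had 20 single-exon models with 110 and 144 reads, and Pvt1, the lncRNA gene beside Myc, 13 models with 70 and 102 reads. Scd2, a fatty acid desaturase of 13.2 kb, differed from these in coverage: its 11 models took up 44.3% of the span and had 3022 and 3839 reads.

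The libraries ranked the models alike. Across all 7959 models the Spearman correlation was 0.921 and the Pearson correlation of log2(CPM + 0.5) was 0.928. These are descriptions across models, which share library, depth and length, and carry no p-value. Multi-exon models with at least 20 reads over both libraries agreed more closely (Spearman 0.932, 1697 models) than single-exon ones (0.719, 2256 models), models in no gene span (0.552) or small noncoding RNA genes (0.667, 80 models). The counts differed by more than sampling noise: the chi-square statistic per degree of freedom was 55.2 over 4813 models, so the libraries are not 1 library deposited in duplicate. Among the 91 multi-exon models with 1000 or more reads, the robust SD of the log2 ratio was 0.32, where counting error alone gives 0.07. Among the 42 single-exon models of that depth it was 2.09. At lower depths both kinds were closer, with multi-exon models given first. The values were 0.74 and 0.89 from 20 to under 50 reads, 0.51 and 0.62 from 100 to under 200, and 0.38 and 0.73 from 200 to under 1000.

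**Figure D2:**
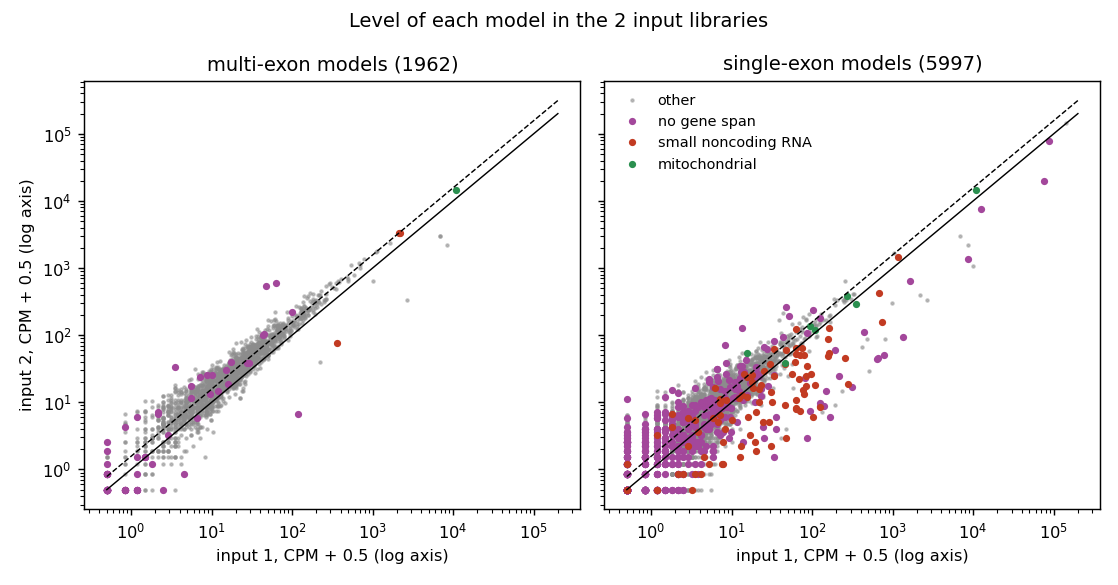
Level of each model in input 1 (horizontal) and input 2 (vertical), both CPM + 0.5 on log axes, for 1962 multi-exon and 5997 single-exon models; the solid line marks equal levels and the dashed line the median ratio of 0.65 on the log2 scale. Multi-exon models follow the dashed line, while 60 of the 80 small noncoding RNA models with at least 20 reads, and part of the models in no gene span, lie below the solid line.

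Most models had a larger share of input 2 than of input 1. Among the 3953 models with at least 20 reads over both libraries, the median log2 ratio of input 2 over input 1 was 0.65, which is 1.57-fold, and 83.5% of models were higher in input 2. A TMM factor, which scales on the bulk of the models, gave a shift of 0.63, and with it 51.0% were higher. With the reads summed over models as the total, the median was 0.84. Ratios below are by library total and are read against a shift of 0.63 to 0.65. With 1 library against 1 library there is no replicate check of any ratio. By library total 1132 models (28.6%) were over 2-fold higher in input 2 and 137 (3.47%) over 2-fold lower. After TMM these were 343 (8.68%) and 325 (8.22%).

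The models lower in input 2 were short. Of the 137, 78 (56.9%) were under 200 bases and 124 (90.5%) had 1 exon, whereas 16.1% of the 3953 compared models were under 200 bases and 57.1% had 1 exon. Of the 1132 that were higher, 16.9% were under 200 bases. The 137 held 15.6% of input 1 and 3.94% of input 2, or 13.1% and 3.08% when overlapping models were counted once. The 188-base model on chromosome 6 alone held 7.65% and 1.97%. All 25 single-exon models under 100 bases with at least 20 reads were lower in input 2, with a median log2 ratio of -3.40, and 24 of them were over 2-fold lower. From 100 to under 150 bases 30 of 91 were over 2-fold lower, from 150 to under 200 bases 20 of 359, and at 1000 bases or more 0 of 46. Multi-exon models had median log2 ratios of 0.65 to 0.71 in every length range from 100 bases up. The 200-base limit used in this and the following paragraphs was chosen after the values were seen.

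**Figure D3:**
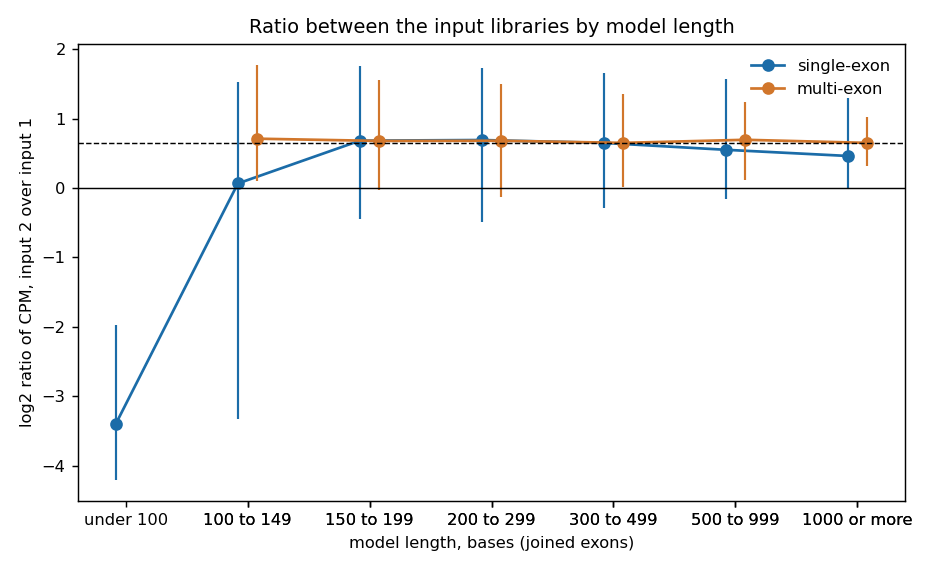
Median log2 ratio of CPM, input 2 over input 1 (points), with the 10th to 90th percentile range of models (vertical lines), by model length for single-exon (blue) and multi-exon (orange) models with at least 20 reads; ranges with fewer than 20 models are left out. The dashed line is the median of all models, 0.65, and only the shortest single-exon models, at -3.40, stand below 0.

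Under 100 bases the single-exon models of each class were lower in input 2: 8 of 8 small noncoding RNA genes, 13 of 13 in no gene span and 3 of 3 in protein-coding spans, with median log2 ratios of -2.94, -3.77 and -4.02. Of all models compared, of any length, 16.5% were lower. From 100 bases up the classes differed in their counts. Of the single-exon models of 100 to under 150 bases, 20 of 21 small noncoding RNA genes were lower in input 2 (median log2 ratio -2.62) and 14 of 15 models in no gene span (-1.28), but 5 of 49 in spans of protein-coding genes (0.71). From 150 to under 200 bases the medians were -0.90 for 12 small noncoding RNA genes, 0.23 for 35 models in no gene span and 0.74 for 297 in protein-coding spans.

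Small noncoding RNA genes were the class with the highest share of models lower in input 2. What sets these and the other short models apart was not tested. Of 95 models 80 had at least 20 reads, and 60 of the 80 were lower in input 2, against 16.5% of all models compared. Over 2-fold lower were 40, against 3.47% of all models, and over 2-fold higher 3, against 28.6%. After TMM these were 50 and 1, against 8.22% and 8.68%. Models at most 1.5 times as long as the annotated gene were then taken alone, since longer ones hold flanking sequence too. Where the gene was under 200 bases, 41 of 44 such models were lower in input 2 and 34 over 2-fold lower, with a median ratio of 0.210. Where it was 200 bases or longer, 9 of 15 were lower and 2 over 2-fold lower, with a median of 0.840. Models more than 1.5 times as long as a gene under 200 bases, were lower in 8 of 19.

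**Figure D4:**
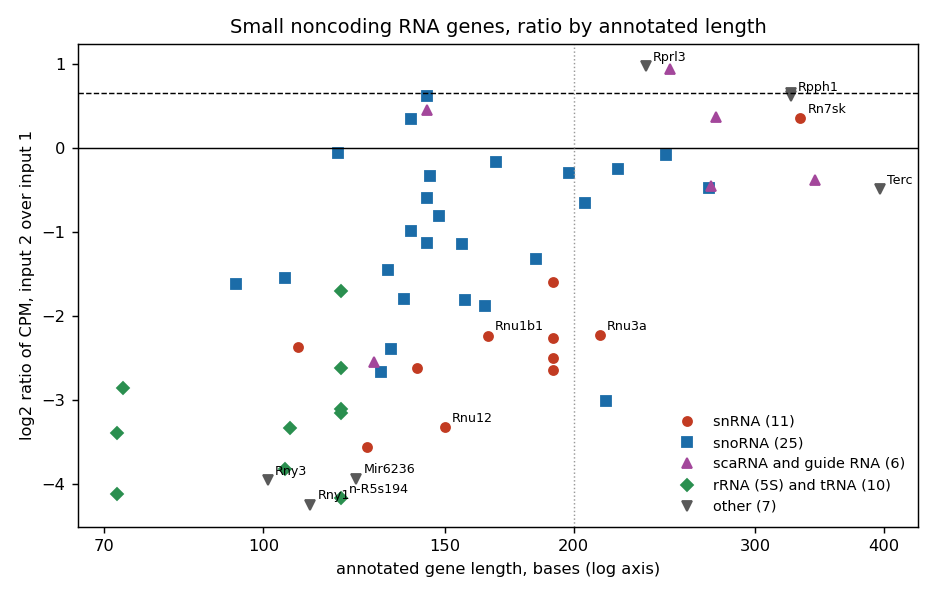
Log2 ratio of CPM, input 2 over input 1, against the annotated gene length in bases (log axis) for the 59 models of small noncoding RNA genes at most 1.5 times as long as their gene, by class. The dotted line marks 200 bases and the dashed line the median of all models, 0.65; the Y RNAs, Mir6236 and part of the 5S copies and transfer RNAs lie near -4, and 7SK and RNase P RNA above 0 at the right.

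Polymerase III RNAs split by length. The Y RNAs, short partners of the Ro60 protein, were far lower in input 2: Rny3 had 373 reads in input 1 and 23 in input 2, and Rny1 139 and 7, together a 16.3-fold difference. The 5 models of 5S ribosomal RNA genes had 825 and 99 reads in sum, and each was over 2-fold lower, against 3.47% of all models compared. The 12 models named by transfer RNA genes had 263 and 29. Near-identical copies of 5S and transfer RNA genes can share reads, so single copies are uncertain and the sums are given. The longer polymerase III RNAs were not lower to this degree. Rn7sk, the 7SK RNA that holds the elongation factor P-TEFb inactive, had 3445 and 4207 reads (1154 and 1474 CPM). Rpph1, the RNA of RNase P, which trims the 5′ ends of transfer RNAs, had 6540 and 9555, and Rprl3, listed as an RNase P RNA gene, 187 and 351. Rmrp, the RNA of the related RNase MRP, was between the 2 sets at 2022 and 1225 reads, a 1.58-fold difference.

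Spliceosomal RNAs were lower in input 2. Rnu1b1, a copy of U1, which pairs with 5′ splice sites, had 1067 and 217 reads, and the minor spliceosome RNAs U12 (Rnu12) and U11 (Rnu11) had 209 and 20 and 135 and 25. Copies of U1 are near-identical, so its count is uncertain. The 4 further snRNA genes with a 191-base span and at least 20 reads had 235 to 770 reads in input 1 and 36 to 153 in input 2. U3 (Rnu3a), a nucleolar RNA needed to process the ribosomal RNA precursor, had 2179 and 445 reads, a 4.68-fold difference, although its gene has 212 bases. Of the 11 snRNA models with at least 20 reads 10 were over 2-fold lower, against 3.47% of all models compared, and the eleventh was 7SK.

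The snoRNAs were also mostly lower. C/D and H/ACA snoRNAs guide methylation and pseudouridylation of ribosomal RNA. Of 39 with at least 20 reads, 30 were lower in input 2, against 16.5% of all models compared. Over 2-fold lower were 16, against 3.47%, and the median log2 ratio was -0.59. After TMM 36 of 39 were lower, against 49.0%. The 25 models at most 1.5 times as long as their gene had a median of -0.99, with 23 lower and 12 over 2-fold lower, and the 14 longer models a median of 0.01, with 7 lower. Snord118 (U8) had 248 and 68 reads, Snora81 286 and 74, and Snord21 203 and 63. Snord15b, with 480 and 365 reads, Snord17, with 224 and 180, and Snora21, with 185 and 184, were nearer to each other. The Snora21 model is 1.75 times as long as its gene and overlaps another model, so it can hold reads of other RNA. The 4 small Cajal body RNAs had 310 and 374 reads in total, with a median log2 ratio of 0.27. Terc, the RNA template of telomerase, had 100 and 68 reads over a 397-base gene.

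Of 6 microRNA genes with a model, 1 had a model shorter than its gene. Mature sequences of 3 of them, from RefSeq (GRCm38.p6), are given with the seed, bases 2 to 8, in capitals, since the seed guides target choice; the 3 seeds differ.
mmu-miR-6236: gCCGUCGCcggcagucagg
mmu-miR-18a-5p: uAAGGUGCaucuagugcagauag
mmu-miR-142b: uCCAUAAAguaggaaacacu
The model of Mir6236 (chr9:110281272-110281369) spans 98 bases and had 832 reads in input 1 and 52 in input 2, a 15.3-fold difference. Mir18, of the Mir17-92 cluster, lay in a 384-base model with 11 and 1 reads, and Mir142b, at the blood-cell Mir142 locus, in a 428-base model with 4 and 11. The last 2 rest on few reads, and their models are longer than the annotated hairpins. Of the 4 microRNA models with at least 20 reads, 2 were lower and 2 higher in input 2. The shares over all models compared were 16.5% and 83.5%. Mir6516 had 67 and 50 reads and Mir1893 had 17 and 46.

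Single-exon models outside annotated genes were mostly lower in input 2 when under 150 bases. From 150 to under 200 bases 21 of 35 were higher and 14 lower, against 83.5% and 16.5% of all models compared. Among models of every class with at least 100 reads, the 10 lowest in input 2 had folds of up to 34.7-fold. All of these had 42 to 239 bases. The extreme was a 42-base model on chromosome 17 with 254 and 7 reads. A 101-base model on chromosome 9 had 500 and 16, and a 64-base model on chromosome 2 had 944 and 47. Of the 13 single-exon models under 100 bases in no gene span, each was lower in input 2, with 6931 reads in sum in input 1 and 504 in input 2.

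The 10 models highest in input 2 were longer, at 170 to 2268 bases, with folds of 5.05 to 11.5. At 1 locus on chromosome 2 (chr2:98662237-98667258, in no gene span) a 2-exon model and 2 further models that overlap it were all higher, the first with 185 and 1682 reads. A model on the Y chromosome had 9 and 93 reads and a 170-base model on chromosome 14 had 23 and 200. In gene spans, Camk2b, a calmodulin-dependent kinase, had 128 and 620 reads, and Npm3, a nucleoplasmin relative, 16 and 85.

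Ribosomal protein genes were the most abundant list of mRNAs. Of 91 symbols 60 had a model, 59 of them multi-exon, and they summed to 9543 CPM in input 1 and 16584 in input 2 (13064 ± 4978, SD, n = 2). All 60 had a ratio above 1 by library total, against 83.5% of all models, but 43 of 60 after TMM, against 51.0%; 18 were over 2-fold higher, against 28.6%. The median log2 ratio was 0.81. Rplp2, of the ribosomal stalk, had 2101 and 3160 reads and, at 3114 and 4897 CPM per kilobase, the highest level per length of these named members. Rpsa had 1607 and 3201 reads, Rpl4 1735 and 2284, and Rplp1 1451 and 2071. Ratios ran from 0.02 on the log2 scale for Rps27 (217 and 211 reads) to 1.76 for Rpl23a (150 and 487).

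Ribosomal protein promoters are known for a pyrimidine-rich start site, so the promoters of the leading members were read from RefSeq (GRCm38.p6). The stretch runs from 90 bases before to 10 after the annotated start, and capitals mark any match to the motif CTTTC or the motif CTTTT or the motif CTTCC within 10 bases of the start.
Rplp2 (chr7:141447561-141447660, plus strand): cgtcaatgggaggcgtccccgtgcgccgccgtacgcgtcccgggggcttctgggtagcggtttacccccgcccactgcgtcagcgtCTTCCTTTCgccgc
Rpsa (chr9:120127676-120127775, plus strand): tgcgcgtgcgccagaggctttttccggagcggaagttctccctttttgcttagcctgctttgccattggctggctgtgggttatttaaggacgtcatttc
Rpl4 (chr9:64173297-64173396, plus strand): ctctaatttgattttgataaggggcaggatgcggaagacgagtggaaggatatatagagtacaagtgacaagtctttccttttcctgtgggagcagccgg
The table held promoters for 46 of the 60 genes. A match on the gene's strand was present in 12 of the 46 (26.1%), against 8.36% of 32851 promoters, and its reverse complement in 4 (8.70%) against 8.21%. In Rplp2 2 matches overlap.

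Other mRNA lists were also higher in input 2 by library total, as were 83.5% of all models compared. After TMM the share of all models was 51.0%. Translation factors (23 genes with a model) summed to 3501 and 5213 CPM, with a median log2 ratio of 0.52. By library total 20 of 20 compared were higher in input 2, but 8 of 20 after TMM. Pabpc1, the poly(A) binding protein, led after Eef1a1 with 2102 and 2854 reads. The cytoskeletal and abundant cytoplasmic list (20 genes) summed to 4353 and 7033 CPM, with a median log2 ratio of 0.91 and 14 of 19 higher after TMM. In it, Rack1 had 1497 and 1845 reads, Actb 1062 and 1376, and Ppia, a peptidyl-prolyl isomerase, 181 and 634. Nuclear-encoded oxidative phosphorylation genes were 8, all higher by library total and 4 of 8 after TMM; Cox6c, a cytochrome oxidase subunit, had 53 and 176 reads.

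Histone genes were well represented. The mRNAs of replication-dependent histones lack poly(A) tails, while those of variants in the list, such as H3f3b, H2az1 and H1f0, carry them. Of 78 histone genes 34 had a model, and these summed to 2637 and 3899 CPM. The linker histones H1f3 (914 and 987 reads), H1f4 (788 and 959) and H1f2 (751 and 959) and the core histones H2bc18 (985 and 1173) and H2ac20 (768 and 1855) led. By library total 32 of 34 were higher in input 2, against 83.5% of all models compared, but after TMM 14 of 34, against 51.0%. Copies of one histone are near-identical, so reads of single genes are uncertain.

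Nuclear machinery genes were numerous and modest in level. Splicing factors had models for 34 of 38 genes (1495 and 2545 CPM in sum), led by Srrm2, a speckle scaffold, with 949 and 1154 reads, and Hnrnpu with 423 and 1097. Chromatin genes had models for 32 of 38 (1232 and 2018 CPM), among them the cohesin subunit Rad21 (543 and 917 reads), the remodeller Smarca4 (474 and 574) and the methyltransferase Dnmt1 (268 and 487). Cell cycle genes had 20 of 33 (1558 and 2492 CPM). Mki67 alone gave 1099 and 1750 CPM of that sum. Among the others were Myc at 304 and 442 reads and Top2a at 124 and 287. Of nucleolar proteins 14 of 23 had a model, led by nucleolin, Ncl, at 1475 and 1940 reads and Npm1 at 381 and 728. Glycolytic genes had 15 of 20, led by Pkm, with 996 and 1459 reads. The median log2 ratios of these 5 lists lay between 0.67 and 0.71, close to the shift.

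**Figure D5:**
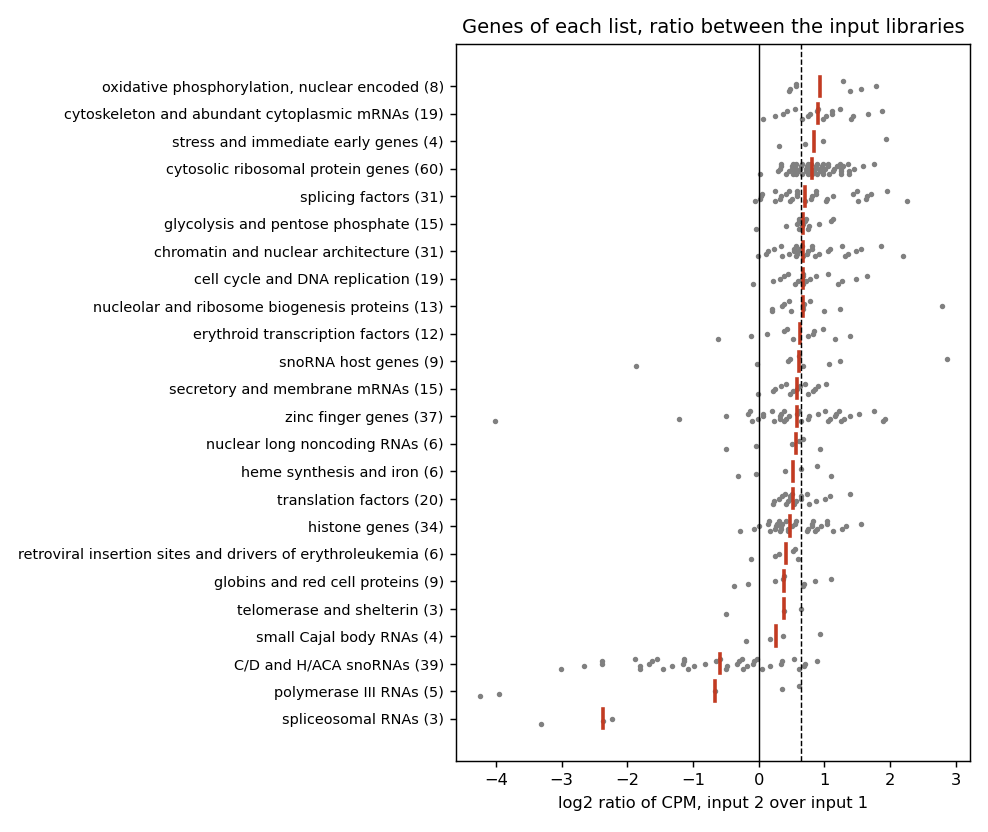
Log2 ratio of CPM, input 2 over input 1, for each gene with at least 20 reads (grey points) in each list with 3 or more such genes, with the list's median (red bar) and the number of genes in parentheses; the solid line is 0 and the dashed line the median of all models, 0.65. Spliceosomal RNAs, polymerase III RNAs and snoRNAs have medians below 0, and lists of mRNAs have medians from 0.39 (globins and red cell proteins) to 0.93 (oxidative phosphorylation).

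Models covered part of each erythroid list, and a gene without a model is not shown to be absent. Of 14 erythroid transcription factors 13 had a model, in sum 416 and 629 CPM: after Zfpm1, Ldb1, which bridges enhancers to promoters, had 170 and 366 reads, Myb 185 and 254, Klf1 74 and 126, Bcl11a 66 and 124, and Gfi1b 45 and 47. Of 27 globin and red cell proteins 9 had a model, among them Ermap with 146 and 224 reads, the skeleton proteins Epb41 with 97 and 168 and Sptb with 74 and 114, and the erythropoietin receptor Epor with 57 and 65. Of 19 heme and iron genes 9 had one: the ferritin genes Fth1 (639 and 1128 reads) and Ftl1 (576 and 731) and the heme enzyme Cpox (191 and 391) led, and Alad and Ppox had at most 27 reads in either library. By library total 10 of 12, 7 of 9 and 4 of 6 compared genes of these lists were higher in input 2, against 83.5% of all models.

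Malat1, an RNA of nuclear speckles, led the lncRNA genes. Its longest model, 3137 bases, had 3121 and 4754 reads (333 and 531 CPM per kilobase), and 4 further models of its span were among the 10 lncRNA models with the most reads. Of the 68 lncRNA models with at least 20 reads 51 were higher in input 2 by library total, against 83.5% of all models compared. Of those 10, 4 single-exon models were far higher in input 1: Gm36876 had 2396 and 245 reads over 457 bases, Gm46595 1442 and 251 over 225 bases, Gm19951 1248 and 188 over 228 bases, and Gm15564 570 and 25 over 239 bases. Norad had 31 and 57 reads. Tug1, with 15 and 14 reads, and Pvt1, with 14 and 19 in its largest model, had too few for a difference to be detectable at this depth. Of 19 nuclear lncRNAs listed 7 had a model.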

How the data were processed

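The authors deposited, per the file headers, whole-number counts of reads per assembled transcript model and FPKM values; the submitters' processing notes list cutadapt, HISAT2, Cufflinks, featureCounts and mm10, without versions or roles. The FPKM column equals the count over the model length and a library total; what that total counts is not stated. Counts of 0 carry the deposited FPKM of 1 read, so counts were used throughout. The input files were joined on all exons (7708 models) or on chromosome, first start and length (251); none was left over. Each model took the name of the RefSeq gene (GRCm38.p6) whose span held 50% or more of the model. Short genes, up to 1000 bases, were also matched to the single-exon model around them if it was not over 8 times longer, a rule set after the data were seen. In all 6852 models fell in a span, 534 with more than 1 candidate, and 208 overlapped another model and can share reads. The strand setting of the counting is not given in the sources used here, so antisense reads were not told apart.

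No groups were compared. The only test was a chi-square comparison of the counts of the 2 libraries, to see whether they differ beyond sampling noise. Ratios used at least 20 reads over both libraries; TMM factors came from edgeR 4.0.16 in R 4.3.3. Intervals are exact (Clopper-Pearson, 95%). The computations were tested on simulated data. Members and lists were chosen with earlier results of these data known. Named models were, by mean CPM over the 2 libraries, the 20 highest, the 10 highest of each kind (multi-exon, single-exon, per kilobase from 200 bases, lncRNA, no gene span), the 10 largest folds each way from 100 reads, the 10 genes with the most models, the markers, and from each list all members up to 10, else the highest 4; further list members and models under 100 bases were named after their values were seen. Kinases of the Rps6k family were kept out of the ribosomal protein pattern after the data were seen. Some genes that this rule names are not reported here.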

Additional observations from a re-analysis of the deposited data

How the results depend on the processing

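With the reads summed over models as the total in place of the library total, shares (means over the 2 libraries) were 59.4% for protein-coding spans, 31.3% for no gene span, 5.52% for mitochondrial models, 2.22% for small noncoding RNA genes, 0.961% for lncRNA spans, 0.668% for pseudogenes and other genes, 23.9% for multi-exon models, 67.5% for the top 10 models and 80.6% for the top 100; all lists together summed to 97082 CPM. Each of the 28 list sums was then higher than by library total, and none of the 28 moved beyond the spread under a span rule of 90%. Without the 2 largest models the shares, in the order of the classes above, were 18.7%, 9.20%, 3.41%, 1.38%, 0.60% and 0.414%, and 14.8% for multi-exon models. With 1 model per locus they were 26.7% for protein-coding spans, 1.38% for mitochondrial models, 0.783% for small noncoding RNA genes, 0.356% for lncRNA spans and 7.90% for multi-exon models, which also held 7.49% when only models matched on every exon were kept. These changes follow from what each total or set leaves out. The Spearman correlation was 0.840 with at least 20 reads and 0.751 with at least 100, and the Pearson correlation 0.872 and 0.813. Models over 2-fold apart, counted separately in each setting, were 1269 as reported and 423 with at least 100 reads, where fewer models are compared. They were 668 after TMM and 1672 (1557 higher and 115 lower in input 2) with the reads summed over models as the total. A single library at a time gave the values of input 1 and input 2 in the text, for example 28.2% to 29.2% for protein-coding spans, 11.3% to 19.5% for no gene span and 28.4% to 37.5% for the top 10 models. With 1 library each, no ratio has a replicate check, and ratios of models with few reads are limited by counting error. No paired analysis was possible because no groups were compared.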
